A study of Mus musculus with 4 samples.

Results

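Proliferation and cell cycle genes were followed in the gastrocnemius muscle of mice with and without high-intensity aerobic exercise and with and without cancer. The set held 43 genes chosen by name, out of 23282 genes in the expression tables, and each of the 43 was found once. By role, 10 act in DNA replication and nucleotide supply, 18 act in the G2 phase and mitosis, 9 are cyclins, kinases and a transcription factor of the G1 and S phases, and 6 are inhibitors and checkpoint genes.

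The 4 libraries came from 4 groups of CDF1 mice, a hybrid laboratory strain, with 10 mice per group and 1 library per group. Normal control mice (E-T-) had neither treadmill exercise nor tumor cells, and normal exercise mice (E+T-) ran on a motorized treadmill without tumor cells. Cancer control mice (E-T+) received CT26 cells, a mouse colorectal cancer line, through the tail vein and did not run, and cancer exercise mice (E+T+) received the same cells and ran. The labels gave postnatal day 28 for every library. The study bought the mice at 4 weeks of age and took tissue at the end of the experiment. Day 28 thus matches the age at purchase, and collection came later. The study describes the muscle of a representative mouse per group, and whether a library holds 1 animal or several was not settled by the labels. RNA was measured by QuantSeq, which reads a stretch near the 3′ end of each polyadenylated transcript.

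In a dividing cell, the MCM helicase opens the DNA, PCNA clamps the polymerases to it, and ribonucleotide reductase and thymidylate synthase supply the nucleotides. Cyclin B with CDK1 then drives mitosis, in which aurora and polo kinases, kinetochore proteins and the spindle checkpoint separate the chromosomes. Mature muscle fibers have left the cycle, so that in resting muscle these transcripts come mainly from the few dividing cells between the fibers, whereas D-type cyclins, CDK inhibitors and p53 pathway genes are also expressed in cells that do not divide.

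Deposited values were log2(normalized read count + 1). The whole reads behind them were recovered, and they summed to about 10600000 to 13200000 per library. Summed reads are given as RPM, reads scaled to a library total of 1000000, and a count of 0 allows a level of up to 0.227 to 0.282 RPM depending on the library (3 reads, counting error only). A gene was called changed when its log2 value differed by at least 1 (2-fold) and its normalized read count reached 4 in 1 of the 2 libraries compared. Since every group had a single library, no replicate error could be estimated and no test was made, and each 95% interval covers the counting of reads only (exact Clopper-Pearson interval of the share of reads, on the log2 scale). They do not cover differences between animals or between library preparations. In bulk muscle, fewer cells of a type and less RNA per cell cannot be told apart.

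Promoter sequences are shown first because the genes of the mitosis group share elements that the choice of members did not use. RefSeq windows of 300 bases (250 before and 50 after the annotated start, GRCm38.p6) matched 34 of the 43 members. The cell cycle homology region, searched on both strands as TTTGAA or TTCGAA, was found in 12 of the 14 mitosis genes with a window (85.7%), against 19.4% of 27025 promoter windows of that length. The CCAAT box, the binding element of the factor NF-Y, was found in 13 of those 14 (92.9%, against 37.9%), and both elements together in 12 (85.7%, against 7.7%). Among the replication genes, 4 of 9 windows held an E2F motif, searched on both strands as TTTCCCGC, TTTGGCGC, TTTGCCGC or TTTCGCGC (44.4%, against 2.32%), and 2 of 9 held the cell cycle homology region. No window of the 6 G1 and S phase genes or the 5 inhibitor and checkpoint genes held the cell cycle homology region. Matches may overlap one another, as the E2F motifs of Mcm6 do on opposite strands, and they are letters in a window, with no binding measured. The 200 bases before the start are given for 4 mitosis genes, 1 replication gene and the inhibitor Cdkn1a, with every match in capitals.
Mki67 (chr7:135716380-135716579, minus strand): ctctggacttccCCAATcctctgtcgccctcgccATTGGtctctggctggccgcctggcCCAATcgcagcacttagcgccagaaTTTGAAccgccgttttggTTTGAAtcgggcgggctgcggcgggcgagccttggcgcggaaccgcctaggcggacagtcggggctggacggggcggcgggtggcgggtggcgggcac
Top2a (chr11:99024190-99024389, minus strand): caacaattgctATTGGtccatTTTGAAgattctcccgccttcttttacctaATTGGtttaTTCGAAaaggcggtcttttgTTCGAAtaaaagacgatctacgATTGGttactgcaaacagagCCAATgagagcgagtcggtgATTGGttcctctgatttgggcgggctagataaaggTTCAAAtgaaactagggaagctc
Cdk1 (chr10:69352913-69353112, minus strand): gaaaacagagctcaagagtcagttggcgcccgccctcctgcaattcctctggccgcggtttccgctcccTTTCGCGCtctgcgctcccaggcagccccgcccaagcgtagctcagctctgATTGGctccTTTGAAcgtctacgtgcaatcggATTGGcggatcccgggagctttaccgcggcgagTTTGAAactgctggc
Cdc20 (chr4:118437344-118437543, minus strand): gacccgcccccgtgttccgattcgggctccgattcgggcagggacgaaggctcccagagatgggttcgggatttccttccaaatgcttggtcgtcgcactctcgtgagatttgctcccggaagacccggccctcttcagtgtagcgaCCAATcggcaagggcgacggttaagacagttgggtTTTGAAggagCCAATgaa
Mcm6 (chr1:128359706-128359905, minus strand): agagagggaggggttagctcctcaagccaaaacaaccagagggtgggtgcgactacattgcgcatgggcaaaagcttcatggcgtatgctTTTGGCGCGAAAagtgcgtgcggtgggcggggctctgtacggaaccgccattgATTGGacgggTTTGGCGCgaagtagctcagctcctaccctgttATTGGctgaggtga
Cdkn1a (chr17:29090779-29090978, plus strand): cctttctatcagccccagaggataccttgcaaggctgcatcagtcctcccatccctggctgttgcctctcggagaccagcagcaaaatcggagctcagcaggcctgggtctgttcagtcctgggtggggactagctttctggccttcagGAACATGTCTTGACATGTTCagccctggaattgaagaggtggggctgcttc
In the first 4 sequences the capitals mark cell cycle homology regions and CCAAT boxes, with 1 E2F motif in Cdk1. In Mcm6 they mark E2F motifs and CCAAT boxes. In Cdkn1a they mark a p53 response element, searched after this window had been seen and with at most 1 mismatch allowed, which 1 of the 34 member windows and 25 of the 27025 windows (0.0925%) held. The printed stretch of Cdkn1a holds no cell cycle homology region, CCAAT box or E2F motif in these letters.

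The cancer control library held the highest normalized read count for 31 of the 43 genes. These included 17 of the 18 mitosis genes, with Aurka as the exception, and 7 of the 10 replication genes. The lowest value lay most often in the normal exercise library, for 18 of the 43 genes and 10 of the 18 mitosis genes, leaving out 3 genes (Bub1, Bub1b and Cdk6) that had no read in 3 libraries alike. No share over all genes was computed for these highest and lowest places, so the counts have no background. Reads of the 18 mitosis genes summed to 50.8 RPM (95% interval 46.7 to 55.1) in E-T-, 59.96 (55.9 to 64.3) in E+T-, 130 (123 to 137) in E-T+ and 43.8 (40.0 to 47.9) in E+T+. Ccna2 alone supplied 37.0% to 62.9% of those reads. Without Ccna2 and Aurka, which were set aside after their values were seen, the other 16 genes summed to 20.9 (18.4 to 23.8), 11.7 (9.95 to 13.7), 79.6 (74.3 to 85.1) and 20.1 (17.6 to 23.0) RPM in the same order. For these 16 genes the normal exercise library was the lowest, and the intervals of the normal control and cancer exercise libraries overlapped. This order depended on leaving out Ccna2 and Aurka. Over all 18 genes the normal exercise library lay above the normal control, and the cancer exercise library was the lowest.

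**Figure D1:**
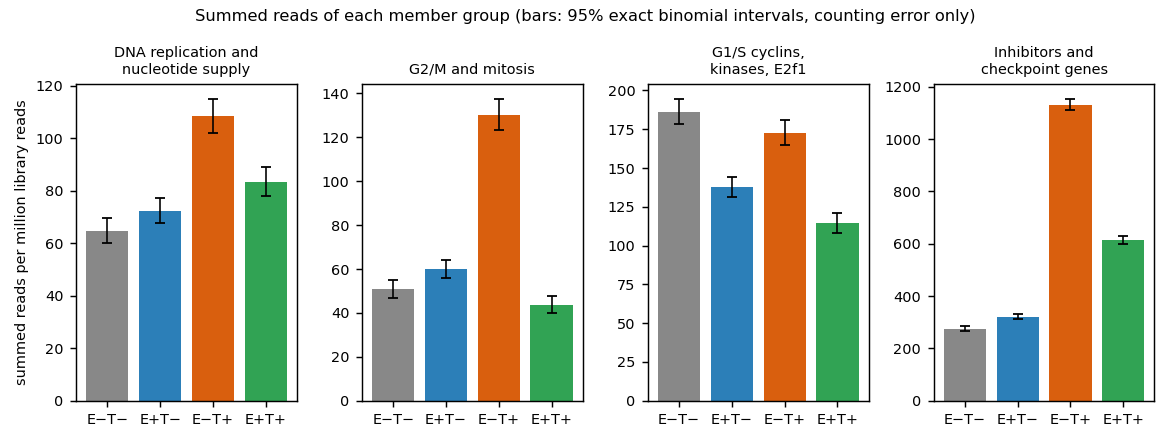
Summed RPM, reads scaled to a library total of 1000000 (y axis, from 0, a separate scale in each panel) of the 4 role groups in the 4 libraries (x axis), with 1 bar per library and error bars for 95% exact binomial intervals, which cover counting only. The mitosis sum is highest in the cancer control library at 130, and the inhibitor and checkpoint sum runs from 275 in the normal control to 1131 in the cancer control.

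Tumor without exercise (E-T+ against E-T-) asked what the cancer did to these genes in muscle at rest. It gave 24 changed members, 21 higher and 3 lower, of the 42 that met the minimum (57.1%), against 45.1% of all 14818 genes tested (20.9% higher and 24.2% lower), and in 22 of the 24 the counting interval excluded no change, as for 40.6% of all genes. The median log2 difference was 0.96 over the members and -0.04 over all genes tested. Of the 42 members, 5 met the minimum in the cancer control library alone (Ccnb2, Bub1, Bub1b, Aurkb and Kif11) and so had to be higher. Among the 37 that met it in both libraries, 16 were higher and 3 lower. The changed share of these 37 was 51.4%, against 36% of all genes at the minimum in both libraries. The mitosis group gave 15 higher and 1 lower of 18, with a median of 1.98, or 1.71 when genes without a read were set at 3 reads.

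Exercise in tumor-bearing mice (E+T+ against E-T+) asked what running did in the presence of the cancer. It gave 23 changed members, 2 higher and 21 lower, of 42 (54.8%), against 30.6% of 14491 genes tested (15.6% higher and 15.1% lower), and in 21 of the 23 the interval excluded no change, as for 25.8% of all genes. The median was -1.004 against 0.005 over all genes. Here too 5 members met the minimum in the cancer control library alone (Mki67, Bub1, Bub1b, Aurkb and Kif11), and of the other 37, 2 were higher and 16 lower. The changed share of these 37 was 48.6%, against 20.9% of all genes at the minimum in both libraries. All 18 mitosis genes had a value below 0 in this comparison, and 15 of them were called lower. This comparison and the previous one share the cancer control library, so that a high or low value there moves both.

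Exercise in tumor-free mice (E+T- against E-T-) gave 14 changed members, 2 higher and 12 lower, of 37 (37.8%), against 21.5% of 14518 genes tested (9.44% higher and 12.1% lower), and in 11 of the 14 the interval excluded no change, as for 17.7% of all genes. The median was -0.62 against -0.01. The 5 members that met the minimum only in the normal control library (Rrm2, Mki67, Ccnb1, Birc5 and Ccne1) were all among the 12 lower, and of the other 32 members 2 were higher and 7 lower. The changed share of these 32 was 28.1%, against 12.4% of all genes at the minimum in both libraries. Tumor with exercise (E+T+ against E+T-) gave 12 changed members, 10 higher and 2 lower, of 37 (32.4%), a share close to the 30.3% of all 14470 genes tested (13.9% higher and 16.3% lower), and in 10 of the 12 the interval excluded no change, as for 26.3% of all genes. The 5 members that met the minimum in the cancer exercise library alone (Rrm2, Ccnb1, Ccnb2, Birc5 and Ccne1) were all among the 10 higher, and of the other 32 members 5 were higher and 2 lower. The changed share of these 32 was 21.9%, close to the 21% of all genes at the minimum in both libraries. When the reads were scaled to library totals instead, this last comparison gave 9 higher and 6 lower (40.5%, against 31.1% of all genes). Its median over all genes tested moved from -0.03 to -0.19. The same scaling moved the median over all genes from -0.01 to 0.15 for exercise in tumor-free mice.

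**Figure D2:**
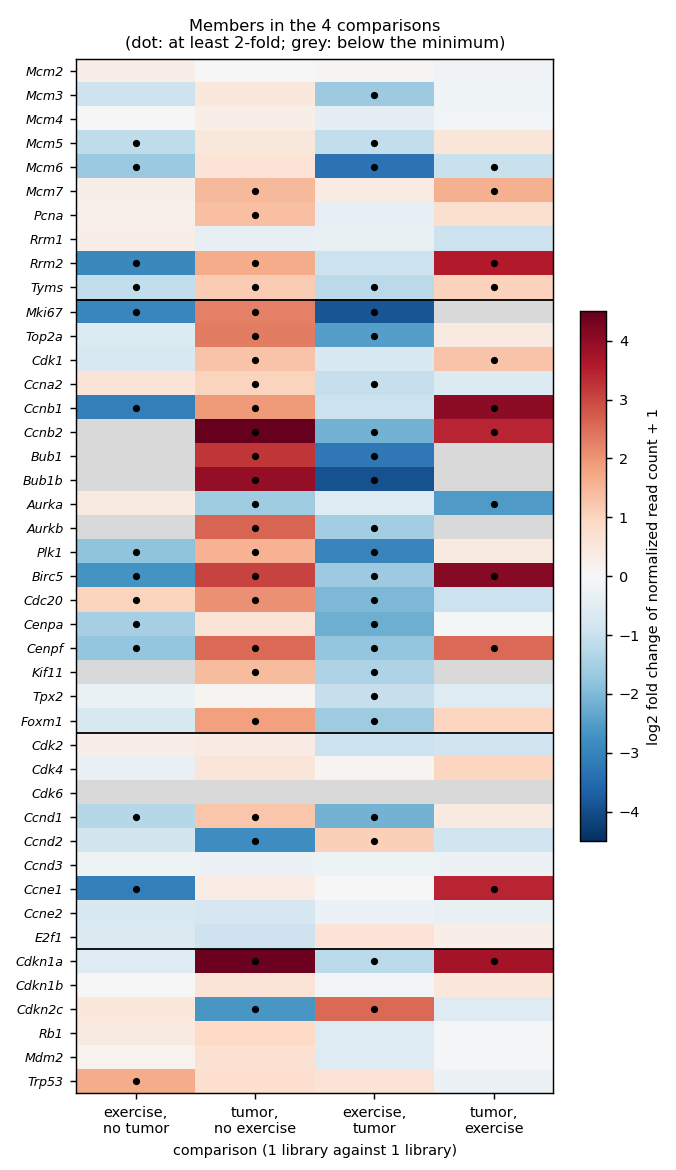
Log2 fold change of the normalized read count + 1 (color scale, blue lower and red higher) for the 43 members (rows, in 4 blocks by role) in the 4 comparisons (columns), with a dot for each change of at least 2-fold and grey where neither library reached a normalized read count of 4. In the mitosis block the column for tumor without exercise holds 15 higher calls and the column for exercise with tumor 15 lower calls.

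Replication genes divided into those that followed the mitosis genes and those that did not. Mcm6, a helicase subunit, had normalized read counts of 40.4 in E-T-, 12.0 in E+T-, 63.1 in E-T+ and 5.49 in E+T+. The exercise libraries were lower than their counterparts in both settings, at -1.67 (95% interval -2.70 to -0.84) without the tumor and -3.31 (-5.22 to -2.24) with it. Mcm5, another subunit, had 17.0, 7.18, 24.6 and 10.9 in the same order, and its call in tumor-free mice rested on 16 and 9 reads, with an interval that included no change (-2.58 to 0.04). Mcm3 had 88.3, 45.3, 122 and 39.0 and was called only with exercise in tumor-bearing mice, at -1.62 (-2.23 to -1.10). Mcm2 and Mcm4, subunits of the same ring, were called in no comparison, and their log2 differences lay between -0.44 and 0.29.

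Mcm7 had a different order, with normalized read counts of 102 in E-T-, 121 in E+T-, 283 in E-T+ and 368 in E+T+. Both tumor libraries were above both tumor-free libraries, by 1.46 (1.13 to 1.82) without exercise and 1.59 (1.32 to 1.89) with it, and with exercise it was not lower in either setting. Exons of Mcm7 share bases with Cops6 and Ap4m1 on the opposite strand, and the strand used in counting is not given in the sources used here. Pcna, the polymerase clamp, rose with the tumor from 126 to 319 (1.34, interval 1.03 to 1.67), and exercised mice stood at 148 without and 246 with the tumor. The counts of Pcna were therefore higher in both tumor libraries, but in exercised mice the difference of 0.73 (0.45 to 1.03) was below the threshold.

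The nucleotide enzymes Rrm2 and Tyms were highest in the cancer control library. Rrm2, the small subunit of ribonucleotide reductase made in S phase, had 6 reads in E-T-, 0 in E+T-, 21 in E-T+ and 10 in E+T+. Taken against 3 reads in the library without a read, it was 2.62-fold lower with exercise in tumor-free mice. By the same rule it was 4.45-fold higher with the tumor in exercised mice. The log2 interval limits nearest to no change were -0.63 and 1.58. Tyms, thymidylate synthase, had normalized read counts of 18.1, 7.97, 41.7 and 17.4, and was called lower with exercise in both settings, at -1.09 (-2.45 to 0.05, an interval that included no change) without and -1.22 (-2.21 to -0.40) with the tumor. Rrm1, the large subunit, was called in no comparison and was lower in the tumor libraries, with 196, 239, 152 and 121.

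Mki67, the gene of the proliferation marker Ki-67, had 11 reads in E-T-, 1 in E+T-, 57 in E-T+ and 3 in E+T+, or normalized read counts of 11.7, 0.668, 60.8 and 3.31. The cancer control library was thus high, and both exercise libraries were near zero. It rose with the tumor without exercise by 2.28 (1.44 to 3.46). It fell with exercise, at -2.93 (-9.28 to -1.07) without the tumor and -3.84 (-6.55 to -2.61) with it. The difference between the exercise libraries, at 1 and 3 reads, was not detectable at this depth.

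Top2a, the topoisomerase that untangles chromosomes, had 20.2, 12.8, 103 and 17.4, with the cancer control library high and the other 3 close together. Its tumor difference was 2.29 (1.63 to 3.14) without exercise, and its exercise difference was -2.49 (-3.43 to -1.80) with the tumor but -0.62 (-1.70 to 0.40) without it. Foxm1, a transcription factor of the mitotic genes, was likewise highest in the cancer control library, with 19.2, 11.2, 71.6 and 22.8. It rose with the tumor by 1.85 (1.14 to 2.75) and fell with exercise in tumor-bearing mice, at -1.61 (-2.44 to -0.93).

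Cyclin B genes were nearly silent outside the tumor libraries. Ccnb1 had 7, 0, 29 and 14 reads, and Ccnb2 had 1, 0, 43 and 9 reads, in the order E-T-, E+T-, E-T+ and E+T+. Both were without a read in the normal exercise library and highest in the cancer control library. Ccnb2 rose with the tumor without exercise by 4.47 (2.88 to 10.8, from 1 read), the largest rise on this scale among the 43 members in that comparison, and with exercise in tumor-bearing mice it fell, at -2.12 (-3.46 to -1.18). In exercised mice the tumor library was at least 4.01-fold higher for Ccnb2 and at least 6.23-fold higher for Ccnb1. Cdk1, the kinase that cyclin B activates, had 25.6, 15.3, 63.1 and 39.0, and rose with the tumor in both settings, by 1.27 (0.60 to 2.06) and 1.30 (0.50 to 2.22). Its exercise differences of -0.71 and -0.68 were below the threshold.

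Birc5, Cenpf and Cenpa act at the centromere and kinetochore. Birc5, which encodes survivin of the chromosomal passenger complex, had 14.9, 1.47, 132 and 41.2, and rose with the tumor by 3.06 (2.34 to 4.06) without exercise and by 4.09 (2.71 to 7.76) with it. Birc5 fell with exercise in both settings, at -2.69 (-6.38 to -1.08) and -1.65 (-2.24 to -1.14), and its level in the cancer exercise library stayed above that of the normal control. Cenpf, a kinetochore protein of late G2, behaved alike with 18.1, 4.70, 110 and 32.5, and its tumor differences were 2.54 (1.86 to 3.44) and 2.56 (1.45 to 4.30). Cenpa, the histone variant of centromeres, had 63.8, 21.8, 98.5 and 20.7. For Cenpa the split ran between the libraries with and without exercise, at -1.51 (-2.26 to -0.87) without and -2.20 (-3.06 to -1.54) with the tumor, and its tumor difference of 0.62 was not called.

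Plk1, the polo kinase of mitotic entry, had 24.5, 6.33, 74.8 and 8.73, so that both exercise libraries were low with 8 reads each. It rose with the tumor by 1.57 (0.92 to 2.36) and fell with exercise, at -1.80 (-3.29 to -0.70) without and -2.96 (-4.38 to -2.06) with the tumor. The spindle checkpoint genes Bub1 and Bub1b had 8 and 14 reads in the cancer control library and none in the other 3. Taken against 3 reads in the normal control they were 2.69-fold and 4.70-fold higher, with lower log2 interval limits of 0.78 and 1.74. Aurkb, the kinase partner of survivin, had 0, 2, 5 and 1 reads, and Kif11, a spindle motor, had 2, 2, 7 and 2. For these 2 genes the counting intervals of the called differences included no change. Tpx2, a spindle assembly factor, had 33.0, 26.7, 36.4 and 17.4 and was called only with exercise in tumor-bearing mice, at -1.03 (-2.03 to -0.17).

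Cdc20, which activates the ligase that ends metaphase, was the single mitosis gene called higher with exercise in tumor-free mice. It had 9 reads in E-T-, 25 in E+T-, 40 in E-T+ and 9 in E+T+. Exercise gave a difference of 1.001 (-0.06 to 2.37) without the tumor and -2.02 (-3.37 to -1.07) with it. It was the single member changed in opposite directions by exercise in the 2 settings, and its tumor-free call had an interval that included no change.

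Aurka, the aurora kinase of the spindle poles, had 86.1 in E-T-, 113 in E+T-, 27.9 in E-T+ and 18.5 in E+T+. Both tumor libraries were below both tumor-free libraries, and no other mitosis gene was called lower with the tumor. The differences were -1.59 (-2.33 to -0.98) without exercise and -2.55 (-3.43 to -1.88) with it. Its promoter window held the cell cycle homology region and CCAAT boxes, as did those of most mitosis genes.

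Ccna2, the cyclin of S phase and G2, had normalized read counts of 271, 405, 549 and 264, and was called higher with the tumor without exercise (1.02, interval 0.80 to 1.24) and lower with exercise in tumor-bearing mice (-1.05, -1.28 to -0.83). Exons of Ccna2 (chr3:36564865-36572150, minus strand, GRCm38) share 510 bases with the opposite-strand gene Exosc9, a subunit of the RNA exosome. Exosc9 had 282, 518, 440 and 265 reads where Ccna2 had 255, 499, 513 and 244. The values of the 2 genes ran nearly level in every library, and without the strand of counting their reads cannot be told apart.

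**Figure D3:**
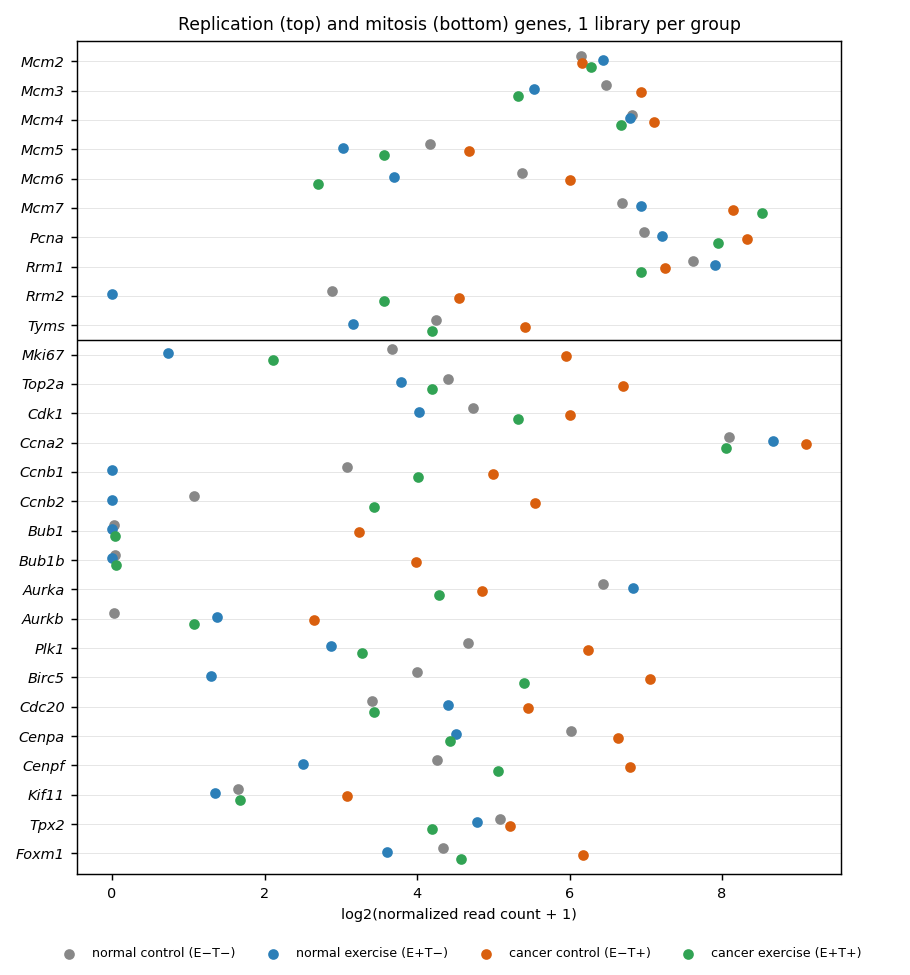
Log2(normalized read count + 1) (x axis) of the 10 replication genes (upper block) and 18 mitosis genes (lower block), with 1 point per library and color for the group, to be read along each row. The cancer control point is the rightmost in 17 of the 18 mitosis rows, and Aurka has both tumor libraries to the left.

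D-type cyclins, which link growth signals to CDK4 and CDK6, moved in different directions. Ccnd1 (chr7:144929931-144939925, minus strand, GRCm38) had 324 in E-T-, 131 in E+T-, 776 in E-T+ and 176 in E+T+. The cancer control library was the highest and both exercise libraries were low. Ccnd1 rose with the tumor without exercise by 1.26 (1.06 to 1.46) and fell with exercise, at -1.30 (-1.59 to -1.03) without and -2.14 (-2.40 to -1.90) with the tumor. Its exons share 1100 bases with LTO1 on the opposite strand, a gene that has no row in the tables.

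Ccnd2 ran the other way, with 653, 367, 94.3 and 198. The cancer control library was here the lowest, at -2.78 (-3.13 to -2.47) against the normal control, and it rose with exercise in tumor-bearing mice by 1.06 (0.70 to 1.46) to a level still below the normal control. Ccnd3 had 544, 465, 449 and 387 and was called in no comparison. The 3 genes thus gave 3 patterns in the same libraries.

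Of the other G1 and S phase genes, Ccne1, a cyclin of S phase entry, was called in 2 comparisons at low counts, with 7, 0, 9 and 9 reads. Cdk2, Cdk4, Ccne2 and E2f1 were called in none, and their log2 differences lay between -0.96 and 0.97. Cdk6 had 1 read in all 4 libraries together. Exons of Cdk4 and Ccne2 share 641 and 609 bases with Tspan31 and Ints8 on the opposite strands. As a group, these 9 genes summed to 186 (178 to 194), 138 (132 to 144), 173 (165 to 181) and 114 (108 to 121) RPM, lower in both exercise libraries than in the counterparts without exercise. Of the summed reads of 1838 in E-T+ and 1260 in E+T+, Ccnd1 alone had 725 and 162. With exercise in tumor-bearing mice 4 of the 8 genes that met the minimum lay above 0 and 4 below, with a median of -0.10. In tumor-free mice 1 lay above 0 and 7 below, with a median of -0.66.

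Cdkn1a, which encodes the CDK inhibitor p21 and is a classical p53 target, was far higher in the tumor libraries. Its normalized read counts were 404 in E-T-, 272 in E+T-, 8598 in E-T+ and 3668 in E+T+. Neither tumor library came near either tumor-free library, and the differences were 4.41 (4.26 to 4.56), or 21.3-fold, without exercise and 3.75 (3.59 to 3.92), or 13.5-fold, with it. It fell with exercise in tumor-bearing mice, at -1.23 (-1.29 to -1.17), and in tumor-free mice the difference was -0.57 (-0.79 to -0.35), below the threshold. Cdkn1a supplied 12.3% and 7.93% of the reads of the 6 inhibitor and checkpoint genes in the tumor-free libraries E-T- and E+T-, and 66.7% and 49.98% in E-T+ and E+T+. The gene lies at chr17:29090976-29100727 on the plus strand (GRCm38), and its annotated start lies at the end of the stretch shown above with the p53 response element.

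Cdkn2c, which encodes p18, an inhibitor of CDK4 and CDK6, had 125, 175, 19.3 and 117. The cancer control library alone was low, at -2.63 (-3.50 to -1.97) against the normal control, and the cancer exercise library was higher than it by 2.54 (1.87 to 3.41). Trp53, the gene of p53, had 46.8, 150, 79.3 and 123. It was called higher with exercise in tumor-free mice at 1.66 (1.20 to 2.19), while its other differences, of 0.75, 0.63 and -0.28, were below the threshold.

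Cdkn1b, Rb1 and Mdm2 were called in no comparison. Cdkn1b, which encodes the inhibitor p27, had 1700, 1669, 2512 and 2313, higher in both tumor libraries by 0.56 (0.47 to 0.66) and 0.47 (0.38 to 0.56). Mdm2, the ligase that removes p53 and is itself a p53 target, had 826, 914, 1322 and 879. Rb1, the pocket protein that restrains E2F, had 191, 256, 361 and 238, and its exons share bases with Rcbtb2 and Lpar6 on the opposite strand. For both Rb1 and Mdm2 the cancer control library was the highest.

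**Figure D4:**
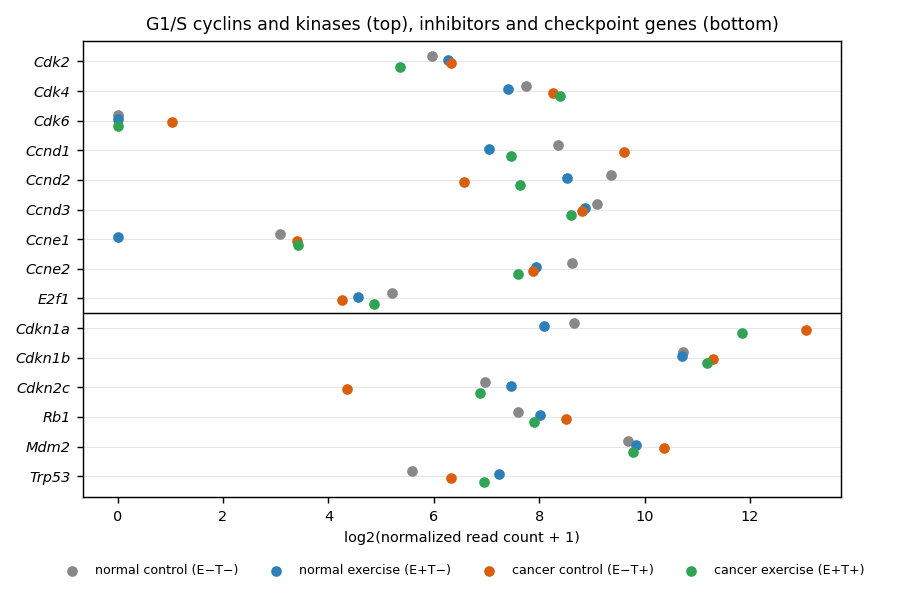
Log2(normalized read count + 1) (x axis) of the 9 G1 and S phase genes (upper block) and the 6 inhibitor and checkpoint genes (lower block), with 1 point per library and color for the group, to be read along each row. Cdkn1a has both tumor libraries to the right, at 13.1 and 11.8, and Ccnd2 and Cdkn2c have the cancer control library leftmost, at 6.57 and 4.35.

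The effect of exercise can be read side by side in the 2 settings, which share no library. Of the 43 members, 10 were changed in both, and 9 of these were lower in both (Mcm5, Mcm6, Tyms, Mki67, Plk1, Birc5, Cenpa, Cenpf and Ccnd1), while Cdc20 changed in opposite directions. These 10 were 27.0% of the 37 members that met the minimum in both comparisons, against 9.66% of 13524 such genes over the whole table. The 9 lower in both were 24.3%, against 2.80% of all genes, and the 1 changed in opposite directions was 2.7%, against 4.99%. In tumor-free mice the intervals of Mcm5, Tyms and Cdc20 included no change, and Mki67 and Birc5 met the minimum in the normal control library alone and so had to be lower. In tumor-bearing mice the same held for Mki67, which met it in the cancer control library alone. For the tumor, 10 members were changed both without and with exercise, all in the same direction, 9 higher (Mcm7, Rrm2, Tyms, Cdk1, Ccnb1, Ccnb2, Birc5, Cenpf and Cdkn1a) and Aurka lower. They were 27.0% of 37 members, against 18.9% of 13803 genes over the whole table, and the 9 higher in both were 24.3%, against 6.90%. In exercised mice Rrm2, Ccnb1, Ccnb2 and Birc5 met the minimum in the tumor library alone and so had to be higher, and the interval of Tyms included no change. Without exercise the same held for Ccnb2 in the cancer control library. With 1 library per group, differences between the settings were not tested.

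**Figure D5:**
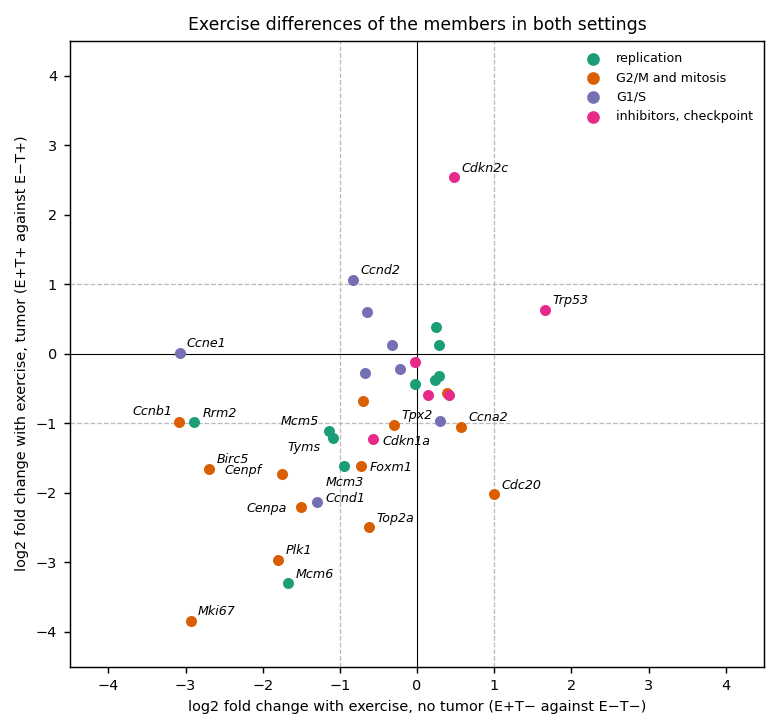
Log2 fold change with exercise in tumor-free mice (x axis) against that in tumor-bearing mice (y axis), 1 point per member that met the minimum in both comparisons, colored by role, with dashed lines at 2-fold and names for members called in either. The lower left holds 9 genes called lower in both, with Mki67 at -2.93 and -3.84, and Cdc20 lies at 1.001 and -2.02.

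Other genes of the same pathways, listed by function, were read in the same way. The shares of all genes given above for each comparison apply here too. Of 43 further mitosis and kinetochore genes, the tumor without exercise gave 20 higher and 2 lower of 37, and exercise in tumor-bearing mice gave 3 higher and 23 lower of 40. The changed shares were 59.5%, against 45.1% of all genes, and 65%, against 30.6%. Calls of genes that met the minimum in 1 library only had their direction fixed by it. In the first comparison 9 of the 20 higher and 1 of the 2 lower were such genes, and among the 26 genes that met it in both libraries 11 were higher and 1 lower. In the second they were 3 higher and 8 lower, and among the other 28 none was higher and 15 were lower. Nek2, a centrosome kinase, had 1 read in E-T-, 32 in E-T+ and none in E+T+. Racgap1, a cytokinesis protein, had 46 reads in E-T+ and none in E+T+. Taken against 3 reads it was 15.2-fold lower, with a log2 interval limit of -3.57. Exercise in tumor-free mice gave 5 higher and 13 lower of 31 (58.1%, against 21.5% of all genes). Of the 18 that met the minimum in both libraries, 1 was higher and 4 lower. In this comparison Prc1, a spindle midzone protein, fell from 25 reads to 1 (-4.05, interval -10.4 to -2.43). Kif22, a chromosome motor, rose instead from 2 reads to 23 (2.63, 1.12 to 6.26). The tumor with exercise gave 13 higher and 2 lower of 33 (45.5%, against 30.3%), or 4 higher and 1 lower among 21.

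Of 31 further replication genes, the tumor without exercise gave 10 higher and 1 lower of 29, and exercise in tumor-bearing mice gave 1 higher and 9 lower of 29. The changed shares were 37.9%, below the 45.1% of all genes, and 34.5%, close to the 30.6%. Of the 26 at the minimum in both libraries, the first gave 7 higher and 1 lower and the second 1 higher and 6 lower. Cdt1, which loads the helicase, rose with the tumor by 2.25 (1.68 to 2.94), and Pole, the leading strand polymerase, fell with exercise in tumor-bearing mice, at -2.19 (-3.31 to -1.37). In exercised and tumor-free mice the direction was mixed, with 5 higher and 2 lower of 27 for exercise in tumor-free mice and 5 higher and 4 lower of 27 for the tumor with exercise. The changed shares were 25.9%, against 21.5% of all genes, and 33.3%, against 30.3%. Of the 5 higher in tumor-free mice, 1 met the minimum in 1 library only. Of 17 E2F, pocket protein and DREAM complex genes, 6 were higher and 3 lower with the tumor without exercise (52.9%, against 45.1% of all genes). Tfdp2, a dimerization partner of E2F, had 526 reads in E-T-, 944 in E+T-, 6512 in E-T+ and 4041 in E+T+. With exercise in tumor-bearing mice 2 of 16 were lower and none higher (12.5%, against 30.6%). In tumor-free mice it gave 1 higher and 3 lower of 17 (23.5%, against 21.5%). The tumor with exercise gave 5 higher and 1 lower of 16 (37.5%, against 30.3%). All 3 lower in tumor-free mice met the minimum in 1 library only, which fixed their direction. The same held for 1 of the 3 lower with the tumor without exercise and 2 of the 5 higher with the tumor with exercise.

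Of 20 further p53 target genes, the tumor gave 7 higher and 2 lower of 19 without exercise and 7 higher and 3 lower of 18 with it. The first was 47.4%, close to the 45.1% of all genes, and the second 55.6%, against 30.3%. Sesn1, a stress-induced inhibitor of mTORC1, rose by 4.68 (4.44 to 4.95) and 3.30 (3.08 to 3.56), and Btg2, an antiproliferative gene, rose by 4.54 (4.28 to 4.83) and 2.85 (2.58 to 3.14). Polk, a polymerase that copies past damaged bases, fell by 2.94 (-3.65 to -2.39) without exercise, from 200 reads to 25, and by 1.58 (-2.04 to -1.17) with it. Ccng1, the gene of cyclin G1, which was added after its values were seen, fell from 8294 reads to 1513 without exercise, at -2.44 (-2.53 to -2.37). Exercise in the tumor-bearing mice gave 2 higher and 8 lower of 19 (52.6%, against 30.6%). Btg2, at -1.95 (-2.08 to -1.83), and Trp53inp1, at -1.81 (-1.95 to -1.67), were among the lower. With exercise in tumor-free mice, 1 was higher and 1 lower of 18 (11.1%, against 21.5%). Pmaip1, with 0 reads in E-T-, 5 in E-T+ and 0 in E+T+, met the minimum in the cancer control library alone. It therefore had to be among the 7 higher with the tumor without exercise and the 8 lower with exercise. Of 18 other CDK regulators, the tumor without exercise gave 1 higher and 4 lower of 17, and exercise in tumor-bearing mice gave 2 higher and 2 lower of 18. In the same list exercise in tumor-free mice gave 1 lower of 16, and the tumor with exercise 1 higher and 3 lower of 17. The changed shares were 29.4%, 22.2%, 6.25% and 23.5%, each below that of all genes in its comparison (45.1%, 30.6%, 21.5% and 30.3%). The 1 higher with the tumor in each setting met the minimum in 1 library only, which fixed its direction. The same held for 1 higher and 1 lower with exercise in tumor-bearing mice. Cables1, an adaptor that binds CDKs, fell with the tumor, at -3.37 (-4.90 to -2.43) and was higher with exercise in tumor-bearing mice by 2.06 (1.003 to 3.63).

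Muscle fiber genes (Ckm, Acta1, Myh4, Myh1, Mylpf and Tnnt3) each had 5490 reads or more in every library, and are the defining genes of the labelled tissue. They summed to 90500 RPM in E-T-, 79360 in E+T-, 56950 in E-T+ and 62340 in E+T+, lower in both tumor libraries. With the tumor without exercise 3 of the 6 were called, Mylpf and Acta1 lower at -2.03 (-2.04 to -2.01) and -1.37 (-1.37 to -1.36) and Myh1 higher at 1.30 (1.26 to 1.34), and with the tumor in exercised mice Myh1 alone, at 1.93 (1.88 to 1.97). Markers of other cells moved with some of the results too. Keratinocyte genes summed to 20.9, 21.8, 33.7 and 8.43 RPM in E-T-, E+T-, E-T+ and E+T+, with all 6 at 1 read or more in the cancer control alone, where Krt5 and Krt1, of the basal and upper layers of skin, had 20 and 7 reads against 0 in the other 3. Epithelial genes summed to 6.03, 4.16, 27.1 and 9.43, of which Krt20 had 177 and 52 reads in the tumor libraries and none in the others, while Epcam, a defining gene of epithelial cells, had 0, 1, 0 and 0. Neutrophil genes summed to 6.57, 14.9, 230 and 157, mostly from S100a8, with 16, 88, 1918 and 885 reads, and S100a9, with 47, 93, 415 and 642. Retnlg had 0, 3, 92 and 175 reads, whereas Csf3r had 0, 0, 0 and 12 and Cxcr2 11, 13, 21 and 13. Macrophage genes summed to 246, 277, 449 and 366, with 2 of the 7 called higher with the tumor without exercise. These were Cd68, with 87, 117, 957 and 295 reads, and C1qa, with 1064, 1350, 2476 and 2015, whereas Csf1r, the receptor that macrophages depend on, had 798, 1237, 491 and 726. Lymphocyte genes summed to between 0.544 and 1.97. Granulocyte precursor genes summed to between 1.74 and 3.66, within which the genes moved in different directions. Of these 7 genes, 5 met the minimum with the tumor without exercise, of which 3 were higher and 1 lower. Prtn3, with 4, 4, 7 and 5 reads, was not called there. Camp had 1, 0, 15 and 14 reads, Ngp 0, 0, 9 and 0, and Ltf 0, 0, 8 and 3, whereas Ctsg had 15, 15, 0 and 0 and Elane none in any library. Satellite cell genes summed to 31.4, 38.2, 89.8 and 56.7, of which Sdc4 had 148, 232, 679 and 363 reads. Pax7, their defining marker, had 23, 27, 2 and 0 reads, and Myf5 had 39, 18, 6 and 31. With the tumor without exercise 1 of the 5 that met the minimum was called higher and 2 lower. The part of these cells in the mitosis and replication results was not tested.

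Alas2, the heme synthesis enzyme of red cell precursors, had 524, 155, 599 and 1333 reads, and Slc4a1, the anion exchanger of the red cell membrane, had 3, 3, 0 and 83. Both were highest in the cancer exercise library, and Alas2 was lowest in the normal exercise library, at -2.14 (-2.42 to -1.89) against the normal control. Fibroblast genes summed to 5885, 3731, 3160 and 3009 RPM and endothelial genes to 202, 292, 211 and 221 RPM. With the tumor without exercise 1 of the 5 endothelial genes, Pecam1, lay above 0 and 4 lay below, none of them called. Most fibroblast reads were of Dcn, with 54428, 46172, 33022 and 32091. Col1a1 had 9159, 1352, 116 and 348 reads and Lum 1605, 992, 95 and 336. With exercise in tumor-bearing mice these 2 of the 5 fibroblast genes were called higher and none lower. The part of these cells in the results was likewise not tested.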

How the data were processed

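Total RNA of gastrocnemius muscle was made into QuantSeq 3′ libraries (Lexogen) and sequenced as single reads of 75 bases. Per the study's methods and the submitters' processing notes, the authors aligned reads with Bowtie2 to mm10, counted them with bedtools and normalized them with quantile normalization in edgeR; the annotation, the strand setting and any removal of duplicates are not given in the sources used here. The files as deposited hold 1 log2 value per gene, of the normalized read count + 1, for 23282 genes in 4 libraries, 1 per group.

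Whole reads were recovered by inverting the quantile adjustment with 1 dispersion and 1 factor per library, after which 100% of values were whole within 0.0006 on the log2 scale (for 92.5% to 94.5% of values per library the rounding left a single possible count, and the few most abundant genes are approximate), and the steps were tested on simulated data. Totals were about 10600000 to 13200000 reads, and the 10 genes with most reads took 13.6% to 23.6% of them. Differences were taken between 2 libraries on the deposited log2 scale with a pseudocount of 1, which understates the change of low genes, with the thresholds given above. No p-value was computed because each group had 1 library. Intervals at 95% cover counting error only. Where a library had no read, the fold was taken against 3 reads in that library, which leaves out the counting error of the other library.

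The members and lists were chosen with earlier results of these data known. Values in every library are given for each member changed at least 2-fold with at least 10 reads in 1 of the 2 libraries compared, and other members by range and count. In the wider lists, genes were named from the up to 4 per list and comparison with the largest change and a normalized read count of at least 16. Gene positions and shared exons came from GENCODE M21 (GRCm38), and promoters from RefSeq (GRCm38.p6). Overlaps of 15 of the 43 members with other genes were counted whatever the strand. Python 3.11.15, numpy 2.4.6, scipy 1.17.1 and pandas 2.3.3 were used. The scaling, the adjustment, the pseudocount, the minimum, the fold threshold and the overlapping genes were varied.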

Additional observations from a re-analysis of the deposited data

Results flagged for a closer look

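Cdc20 was flagged because exercise moved it in opposite directions in the 2 settings, with reads of 9 in E-T- and 25 in E+T- but 40 in E-T+ and 9 in E+T+. Such opposite changes were not particular to the members, at 2.7% of 37 members against 4.99% of 13524 genes over the whole table. The log2 difference was 1.001 without the tumor and -2.02 with it, and the second minus the first was -3.02. The difference was not tested, since each group had 1 library. Exons of Cdc20 share 53 bases with Elovl1 on the opposite strand, which had 141, 225, 206 and 154 reads in the 4 libraries.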

How the results depend on the processing

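Of 48 recomputed counts of changed members, 38 stayed within 1.5 times the reported count. With a minimum of 16, exercise in tumor-free mice gave 9 changed members (28.1%, against 14% of all genes). The tumor with exercise gave 7 (23.3%, against 23.7%). With a minimum of 4 in both libraries these comparisons gave 9 and 7 as well (28.1% against 12.4%, and 21.9% against 21%). At a 4-fold threshold exercise in tumor-free mice gave 5 (13.5%, against 9.9%). The tumor without exercise gave 12 (28.6%, against 21.4%) and exercise in tumor-bearing mice 11 (26.2%, against 14.2%). At 1.5-fold the tumor with exercise gave 21 (56.8%, against 49.1%). Without the 15 members that share exonic bases with another gene, an alternative chosen after seeing the data, the tumor without exercise gave 15 and exercise in tumor-bearing mice 15, each of 28, fewer members being counted. Each was 53.6%, against 45.1% and 30.6% of all genes. The median for the tumor with exercise turned from 0.30 to -0.0875 with a minimum of 16 and to -0.0875 with a minimum of 4 in both libraries, and the other 34 of 36 recomputed medians kept their direction. Of 790 recomputed values of single members, 785 stayed within their counting interval. The other 5 (of Cdkn1a, Cdkn1b and Mdm2) came from scaling to library totals, and no called value changed sign. These values were recomputed under other scalings and pseudocounts only, which can hardly turn the sign of a called difference. Leaving out a library was not run, since each group had 1. No paired analysis was possible because each group had 1 library. Depth limits genes of few reads, and 3 reads in the shallowest library are 0.282 RPM.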
